A study of Homo sapiens with 8 samples.

Results

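The kinetochore is the protein machine that ties each chromosome to the mitotic spindle, and 49 genes that encode its parts, the centromere beneath it and the checkpoint that watches over it were followed in RNA sequencing of HaCaT cells, an established line of human keratinocytes. The 49 genes were picked by name and found through the Entrez gene identifiers of their symbols. That rule uses no measured value, but the list was drawn up with earlier results of these data known. All 49 were found among the 17131 genes of the table, and 48 of them were among the 12434 genes with enough reads to be tested. CENPM, with 2 to 12 reads per library, was not tested.

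There were 8 libraries in 2 groups of 4, titled M5_O5 and M5. By the methods of the study, every culture received M5, which gives keratinocytes a psoriasis-like state. M5 combines oncostatin M with IL-1α, IL-17A, IL-22 and TNF-α (5 cytokines at 10 ng/mL each, 24 h). In 1 group, cells were first held for 12 h in 10 nM OTS514, an inhibitor of the mitotic kinase TOPK. This group then received OTS514 together with M5 for the 24 h. The labels do not settle which group that was: O5 in a title points to OTS514, yet the treatment field gives no treatment to the M5_O5 libraries and the TOPK inhibitor to those titled M5. Each direction is therefore given between titles, as M5_O5 against M5. Cultures without M5 were not analysed here, all cells carry the same wild-type genotype of 1 line, and nothing in the labels says that the libraries came from separate experiments, so p-values measure the spread between these 8 libraries.

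In the vertebrate cell cycle, a centromere is marked by nucleosomes that hold the histone H3 variant CENP-A. The constitutive centromere-associated network (CCAN) sits on this chromatin through the whole cycle, and in mitosis it recruits the Mis12, Knl1 and Ndc80 complexes, of which Ndc80 grips the microtubule. Kinetochores without microtubules load Mad and Bub proteins, which hold back CDC20 and so delay anaphase, and Aurora B corrects wrong attachments. Many of these genes, though not all, are transcribed mainly in G2 and mitosis, and their promoters often carry the cell cycle genes homology region (CHR, TTTGAA or TTCGAA) near the start site and CCAAT boxes upstream of it.

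Promoters of 7 members are shown because sequence is a property that the choice of genes did not use. The stretches below are from RefSeq (GRCh38.p14), 5′ to 3′ on the strand of the gene. Capitals mark TTTGAA and CCAAT or its complement ATTGG. The first 4 are the 160 bases before the start of the gene with the largest difference in CENP-A deposition, the Ndc80 complex, the spindle checkpoint and the chromosomal passenger complex, AURKB standing in for BIRC5, which has no entry. The last 3 are the 60 bases before the start of genes chosen after their matches were seen, and in CDCA8 the capitals hold a TTTGAA that overlaps an ATTGG.
HJURP, chr2:233854536-233854695, minus strand: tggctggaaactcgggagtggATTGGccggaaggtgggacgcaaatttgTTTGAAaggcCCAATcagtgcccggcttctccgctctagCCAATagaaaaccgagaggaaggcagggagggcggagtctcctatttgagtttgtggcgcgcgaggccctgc
SPC24, chr19:11155783-11155942, minus strand: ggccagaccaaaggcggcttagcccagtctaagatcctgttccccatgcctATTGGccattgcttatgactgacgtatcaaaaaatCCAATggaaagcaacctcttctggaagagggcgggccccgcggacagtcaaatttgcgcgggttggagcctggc
MAD2L1, chr4:120066849-120067008, minus strand: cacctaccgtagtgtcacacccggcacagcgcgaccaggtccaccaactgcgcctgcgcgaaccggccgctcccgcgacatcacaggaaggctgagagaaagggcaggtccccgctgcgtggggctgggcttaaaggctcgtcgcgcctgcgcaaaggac
AURKB, chr17:8210226-8210385, minus strand: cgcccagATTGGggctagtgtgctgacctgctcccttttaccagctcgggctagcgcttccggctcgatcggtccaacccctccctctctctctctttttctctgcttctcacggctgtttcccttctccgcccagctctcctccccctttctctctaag
CENPA, chr2:26785996-26786055, plus strand: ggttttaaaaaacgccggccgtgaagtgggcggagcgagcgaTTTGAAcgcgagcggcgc
BUB1B, chr15:40161009-40161068, plus strand: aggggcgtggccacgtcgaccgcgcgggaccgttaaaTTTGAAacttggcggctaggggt
CDCA8, chr1:37692456-37692515, plus strand: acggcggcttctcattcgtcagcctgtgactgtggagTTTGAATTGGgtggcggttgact

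The CHR letters lay within 23 bases of the start in CENPA, BUB1B and CDCA8, and 111 bases before it in HJURP. The stretch of MAD2L1 holds neither motif, since its TTTGAA begins 25 bases after the start, and that of SPC24 holds CCAAT letters but no TTTGAA. That of AURKB holds ATTGG, the complement of CCAAT, and neither TTTGAA nor TTCGAA. Over windows of 300 bases, 250 before the start to 50 after it, TTTGAA or TTCGAA stood on either strand in 23 of the 40 tested members with a promoter entry (57.5%), against 15.5% of the 10208 tested genes with an entry. In 18 of these 23 members a match lay within 40 bases of the start, a count that was not made over all genes. CCAAT, on either strand, was found in 70% of the members and 43.5% of all genes, and both motifs together in 42.5% and 6.48%. The E2F-like letters TTTCGCG or TTTGGCG were found in 10% and 6.48%. These are counts of letters and were not tested, and 8 tested members (MIS18A, CENPH, CENPL, KNL1, KNTC1, BUB3, TTK and BIRC5) had no entry.

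Most kinetochore transcripts were more abundant in the M5_O5 libraries. Of the 48 tested members, 21 (43.8%) were called at 2-fold, that is, at least 2-fold higher in M5_O5 with a Benjamini-Hochberg adjusted p under 0.05 by edgeR's quasi-likelihood test, and over all genes tested this share was 2.87%. The count of members called at 2-fold lower was 0 by edgeR and by DESeq2, against 0.33% of all genes, and it was 0 at an unadjusted p under 0.05 too, since the lowest log2 fold change among the members was -0.51. With no limit on the fold, 31 members were called higher, against 19.5% of all genes, and 2 lower, against 17.6%. The median log2 fold change was 0.79 over the 48 members and 0.01 over all genes, and 43 of the 48 members lay above 0. In bulk libraries, a different share of cells in mitosis and a different amount of RNA per mitotic cell cannot be told apart.

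**Figure D1:**
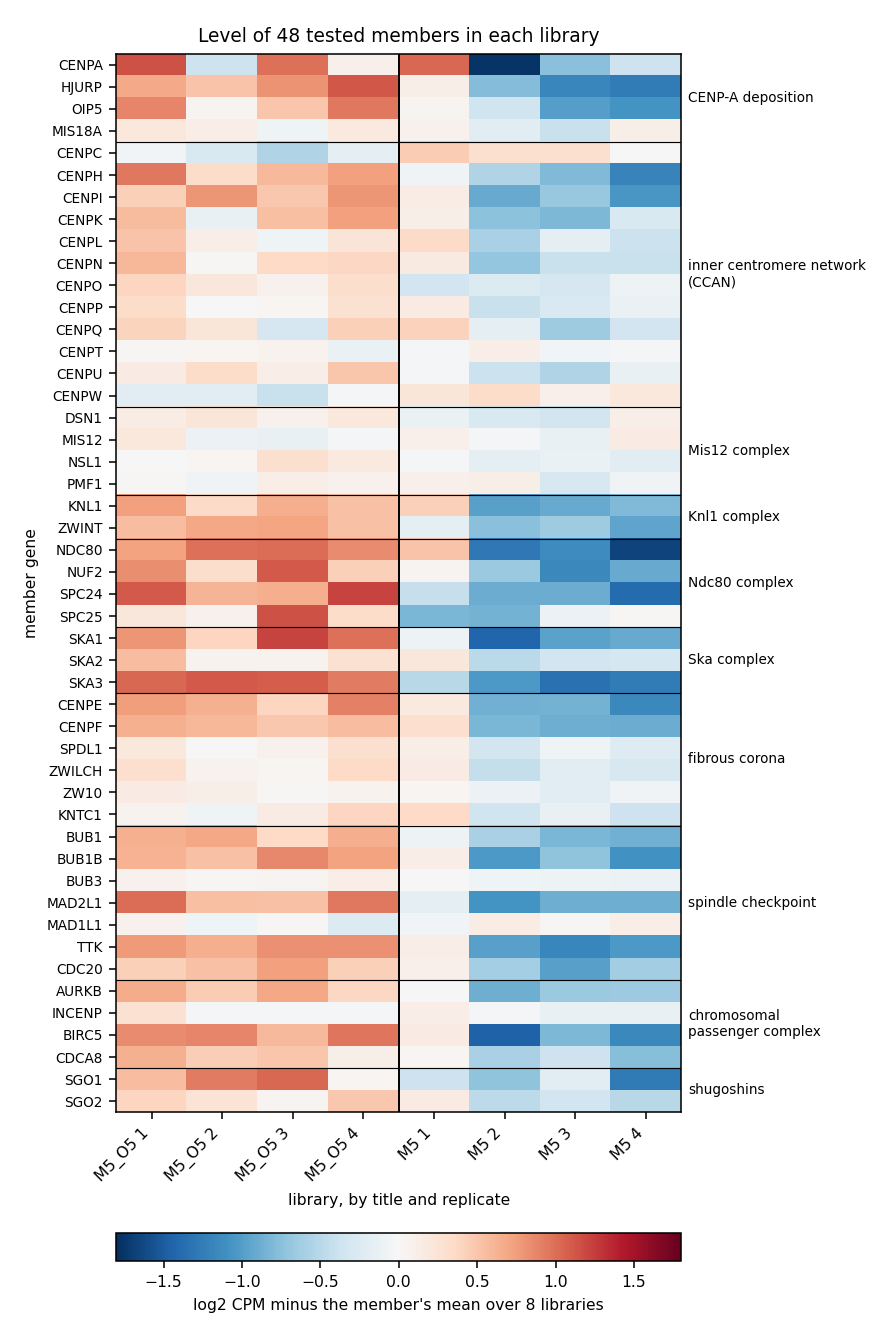
Level of each of the 48 tested members (rows, ordered by role) in each library (columns), as log2 CPM minus the member's mean over the 8 libraries, where CPM is the read count relative to library size after TMM scaling. Most rows are red in the 4 M5_O5 libraries and blue in M5 replicates 2 to 4, and M5 replicate 1 lies between them in many rows.

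The separation was visible in single libraries. All 4 M5_O5 libraries lay above all 4 M5 libraries in 25 of the 48 members, against 17.8% of all genes, and below them in 2, against 15.8%, while the groups overlapped in 21. Without M5 replicate 1, which leaves 4 libraries against 3, the M5_O5 libraries lay above in 38 members, against 24.7% of all genes. Where they did not overlap, the two-sided exact permutation p was 0.0286, the smallest value this design can give. Among the members given library by library below, those that overlapped had an exact p of 0.0571 to 1. Of the 21 members called at 2-fold, 19 had groups that did not overlap, and OIP5 and KNL1 were the exceptions.

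M5 replicate 1 stood apart from the other M5 libraries in these genes, and not in these alone. Over the tested genes, its chi-square per degree of freedom, a measure of difference beyond counting noise, was 10.2 to 16.3 against the other M5 libraries. Those differed among themselves by 2.01 to 4.02. M5_O5 replicate 1 differed from the rest of its group by 7.15 to 11.2, and the rest differed among themselves by 3.02 to 7.15. M5 replicate 1 was also the smallest library, with 13708055 reads assigned to transcripts, against 15958994 to 16922693 in the other 7. It held the highest M5 value in 38 of the 48 members and in 20 of the 21 called at 2-fold. Neither these counts nor the medians that follow were taken over all genes, so they are not shown to be particular to the members. Against the mean of M5 replicates 2 to 4, the median log2 difference over the 48 members was 0.64 in M5 replicate 1 and 1.13, 0.64, 1.10 and 0.86 in M5_O5 replicates 1 to 4. Without it, 24 members (50%) were called at 2-fold higher, against 3.7% of all genes, 39 at any fold, against 22.9%, and 2 lower, against 19.9%, with a median log2 fold change of 0.92. The part of depth or of any other property of this library in its values was not tested.

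The difference went with the level of the transcript. Over the 48 members, Spearman's rho between the mean TPM (transcript abundance scaled for length) and the log2 fold change was -0.73, and over all genes rho between log2 CPM and the log2 fold change was -0.40. These are correlations across genes, which share the 8 libraries, and are given as a description. Of the 36 members at a mean of 10 TPM or less, 20 were called at 2-fold, with a median log2 fold change of 1.07. Of the 12 members above 10 TPM, CDC20 alone was called at 2-fold, and their median was 0.11. The division at 10 TPM was not planned, and the share of all genes called on either side of it was not counted. Among genes under a log2 CPM of 3, a division chosen after the data were seen, 18 of 29 members were called at 2-fold higher, against 9.04% of all such genes, and at or above it 3 of 19, against 0.716%. When the trend of each library on expression level was removed, also chosen after the data were seen, 13 members were called at 2-fold, against 1.79% of all genes, and 27 at any fold, against 16.3%.

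**Figure D2:**
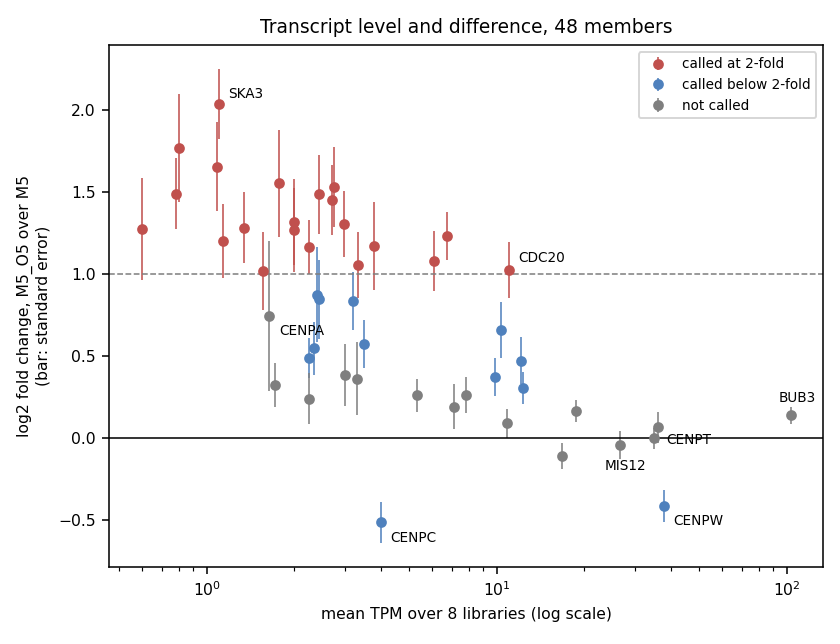
Mean TPM over the 8 libraries (log axis) against the log2 fold change of M5_O5 over M5 for the 48 tested members, with standard errors as bars and a dashed line at 1. Members called at 2-fold lie at the left, CDC20 being the only one above 10 TPM, and BUB3, the most abundant member, lies near 0.

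The deposition of new CENP-A was the first step examined. HJURP is the chaperone that brings CENP-A to centromeres, and OIP5 and MIS18A belong to the Mis18 complex, which licenses the site. Levels are given as CPM, the read count relative to library size after TMM scaling, and ± is the standard error of a log2 fold change. The level of HJURP (gene ID 55355) was 5.23, 4.65, 5.75 and 7.07 CPM in M5_O5 replicates 1 to 4 and 3.50, 1.89, 1.45 and 1.37 CPM in M5 replicates 1 to 4. All M5_O5 values lay above all M5 values, the highest of which was M5 replicate 1, and the log2 fold change was 1.49 ± 0.24 (adjusted p = 0.000318). OIP5 was called too, at 1.17 ± 0.27, although M5_O5 replicate 2 and M5 replicate 1 were both at 1.90 CPM. MIS18A was at 5.81, 5.57, 4.86 and 5.76 CPM in M5_O5 and 5.40, 4.51, 3.88 and 5.48 CPM in M5. These ranges overlapped, and MIS18A was not called (log2 fold change 0.19 ± 0.14, adjusted p = 0.287).

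The call on the gene of CENP-A itself depended on M5 replicate 1. CENPA (gene ID 1058) was at 1.98, 0.689, 1.78 and 0.951 CPM in M5_O5 and 1.82, 0.261, 0.526 and 0.685 CPM in M5, with 4 to 34 reads per library. The value of M5 replicate 1 was above those of M5_O5 replicates 2 and 4, and the difference was not called with all 8 libraries (0.74 ± 0.46, adjusted p = 0.219). Without M5 replicate 1, the log2 fold change of CENPA was 1.43 ± 0.42 (adjusted p = 0.0127).

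The CCAN was the role with the most mixed members. Of its 12 tested genes, 2 were called at 2-fold higher, 4 more were called higher below 2-fold, 2 were called lower and 4 were not called, with a median log2 fold change of 0.43. CENPH (gene ID 64946), part of the arm of the network that also holds CENP-I and CENP-K, had the largest difference. It was at 2.21, 1.44, 1.72 and 1.90 CPM in M5_O5 and 1.09, 0.784, 0.658 and 0.498 CPM in M5, with groups that did not overlap, and its log2 fold change was 1.27 ± 0.26 (adjusted p = 0.0016). Its neighbours CENPI and CENPK were at 1.20 ± 0.23 and 0.85 ± 0.24, and both were called. CENPN, which reads the CENP-A nucleosome, was called at 0.66 ± 0.17. CENPU and CENPO, from another arm of the network, were called at 0.55 ± 0.16 and 0.49 ± 0.12, and the call on CENPU was lost without M5_O5 replicate 4 (0.47) or M5 replicate 3 (0.46). With the level trend removed, CENPK, CENPO and CENPU were at 0.61, 0.29 and 0.32 and were not called.

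The genes called lower were both in the CCAN. CENPW (gene ID 387103), the histone-fold partner of CENP-T and the CCAN gene with the highest mean TPM (37.7), was at 10.2, 10.2, 8.83 and 11.5 CPM in M5_O5 and 13.6, 14.7, 12.5 and 13.4 CPM in M5. Every M5_O5 library lay below every M5 library, and M5 replicate 1 lay within the range of the other M5 libraries (log2 fold change -0.41 ± 0.10, adjusted p = 0.00466). CENPC, the large scaffold that binds CENP-A nucleosomes directly, showed the same order of groups at -0.51 ± 0.13 (adjusted p = 0.0057). CENPC lost its call with limma on log2 TPM, where its log2 fold change was -0.28 with a pseudocount of 1 and -0.34 with a pseudocount of 0.1. The partner of CENPW, CENPT (gene ID 80152), was at 43.8, 43.9, 44.8 and 39.6 CPM in M5_O5 and 42.3, 46.6, 41.4 and 42.0 CPM in M5, groups that covered much the same range (SE of the log2 fold change 0.06, adjusted p = 0.992).

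CENPL, CENPP and CENPQ were not called in the edgeR comparison of all 8 libraries and were called when M5 replicate 1 was left out. CENPL was at 6.28, 4.77, 4.15 and 5.17 CPM in M5_O5 and 5.55, 2.94, 3.88 and 3.36 CPM in M5. CENPP was at 8.37, 6.72, 6.82 and 8.08 CPM in M5_O5 and 7.37, 5.03, 5.53 and 6.11 CPM in M5. CENPQ was at 3.78, 3.33, 2.31 and 3.86 CPM in M5_O5 and 3.80, 2.55, 1.84 and 2.24 CPM in M5. In all 3 genes M5 replicate 1 had the highest M5 value and lay among the M5_O5 libraries. With all libraries their log2 fold changes were 0.38 ± 0.19, 0.32 ± 0.13 and 0.36 ± 0.22 (adjusted p = 0.126, 0.0742 and 0.217), and without M5 replicate 1 they were 0.58 ± 0.17, 0.43 ± 0.13 and 0.58 ± 0.20 (adjusted p = 0.0101, 0.013 and 0.0298). With all 8 libraries CENPP was also called by library size alone (adjusted p = 0.03), and CENPL and CENPP in a fit with a replicate block (adjusted p = 0.0476 and 0.0336). CENPM, untested for its few reads, was at 0.698, 0.402, 0.474 and 0.535 CPM in M5_O5 and 0.146, 0.131, 0.263 and 0.187 CPM in M5, which did not overlap, and with no filter on low counts its log2 fold change was 1.49 (adjusted p = 0.0182).

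The Mis12 complex joins the inner to the outer kinetochore, and the largest log2 fold change among its 4 genes was 0.30. DSN1 (gene ID 79980) had that value and was the only 1 of them called, with 16.2, 17.2, 15.6 and 16.7 CPM in M5_O5 and 13.5, 12.1, 11.6 and 15.8 CPM in M5 (log2 fold change 0.30 ± 0.10, adjusted p = 0.0252). M5 replicate 4 reached into the range of the M5_O5 libraries. The call on DSN1 was lost without any 1 of 4 libraries, M5_O5 replicates 2 and 4 and M5 replicates 2 and 3. MIS12 was at 43.4, 35.6, 35.0 and 37.3 CPM in M5_O5 and 40.9, 37.4, 35.0 and 42.5 CPM in M5. PMF1, the most abundant of the 4 at a mean of 36.1 TPM, was at 17.3, 16.3, 18.5 and 17.9 CPM in M5_O5 and 18.2, 18.4, 14.0 and 16.3 CPM in M5. The groups of MIS12 and PMF1 overlapped over most of their range, and their log2 fold changes were -0.04 ± 0.08 and 0.07 ± 0.09 (adjusted p = 0.719 and 0.607).

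NSL1, the remaining Mis12 complex gene, differed by unit. Its summed reads were at 9.30, 9.42, 11.3 and 10.5 CPM in M5_O5 and 9.05, 8.16, 8.49 and 8.04 CPM in M5. The groups did not overlap, but the gene was not called (log2 fold change 0.26 ± 0.10, adjusted p = 0.0538). It was called without M5 replicate 1 (0.30 ± 0.10, adjusted p = 0.0332), without M5_O5 replicate 1 (0.30, adjusted p = 0.0387) and, with all 8 libraries, by library size alone (0.38, adjusted p = 0.0122). By length-scaled abundance NSL1 was at 6.63, 5.68, 8.13 and 6.68 TPM in M5_O5 and 3.71, 4.21, 3.65 and 3.66 TPM in M5, a log2 fold change of 0.81 on the log2(TPM + 0.1) scale, which limma called.

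Further out, the Knl1 and Ndc80 complexes were called throughout. KNL1 is the scaffold that binds the Bub proteins, and ZWINT is its partner. ZWINT (gene ID 11130) was at 8.31, 9.13, 9.25 and 8.08 CPM in M5_O5 and 5.04, 3.33, 3.62 and 2.93 CPM in M5, and M5 replicate 1 was the M5 library nearest to the other group (log2 fold change 1.23 ± 0.15, adjusted p = 3.02e-05). KNL1 was at 13.1, 9.99, 12.3 and 11.3 CPM in M5_O5 and 10.6, 3.98, 4.21 and 4.55 CPM in M5. M5 replicate 1 was over 2-fold above the other M5 libraries in KNL1 and within the M5_O5 range, so the log2 fold change of 1.02 ± 0.24 (adjusted p = 0.00405) became 1.45 ± 0.13 without it.

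All 4 Ndc80 complex genes were called higher, 3 of them at 2-fold, and in all 4 the groups did not overlap. This complex is a rod with NDC80 and NUF2 at the microtubule end and SPC24 and SPC25 at the kinetochore end. SPC24 (gene ID 147841) was at 1.05, 0.747, 0.770 and 1.13 CPM in M5_O5 and 0.365, 0.261, 0.263 and 0.187 CPM in M5, a log2 fold change of 1.77 ± 0.33 (adjusted p = 0.000913) that rested on 3 to 19 reads per library. SPC25, the most abundant of the 4 at a mean of 2.39 TPM, was at 1.63, 1.49, 3.14 and 1.78 CPM in M5_O5 and 0.803, 0.784, 1.32 and 1.43 CPM in M5. M5_O5 replicate 3 was the highest and M5 replicate 4 was close to M5_O5 replicate 2, and the log2 fold change was 0.87 ± 0.29 (adjusted p = 0.029). The call on SPC25 was lost without M5 replicate 1, where the log2 fold change was 0.76 ± 0.30 (adjusted p = 0.0522), and also without M5 replicate 2 (0.74), without M5_O5 replicate 3 (0.58) and when reads of a transcript's first genomic placement alone were used (1.01, adjusted p = 0.233). NDC80 and NUF2 were called at 1.55 ± 0.33 and 1.32 ± 0.26.

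The largest difference of any member was in the Ska complex, which follows shortening microtubules together with Ndc80. SKA3 (gene ID 221150) was at 2.73, 2.87, 2.84 and 2.56 CPM in M5_O5 and 0.949, 0.653, 0.526 and 0.561 CPM in M5. The lowest M5_O5 value was more than 2-fold the highest M5 value, and the log2 fold change was 2.04 ± 0.21 (adjusted p = 1.03e-05). The values of SKA3 rested on 8 to 50 reads per library. SKA1 was called at 1.65 ± 0.27 (adjusted p = 0.000343), but with the first placement of each transcript alone it was not called, at a log2 fold change of 1.70 (adjusted p = 0.0749). SKA2, at a mean of 12.2 TPM against 1.10 for SKA3 and 1.08 for SKA1, was at 27.2, 19.3, 19.4 and 22.5 CPM in M5_O5 and 21.4, 13.2, 14.6 and 14.8 CPM in M5. M5 replicate 1 lay among the M5_O5 libraries, and the log2 fold change of SKA2 was 0.47 ± 0.14 (adjusted p = 0.0182). That call was lost without M5_O5 replicate 1 or any one of M5 replicates 2, 3 and 4.

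**Figure D3:**
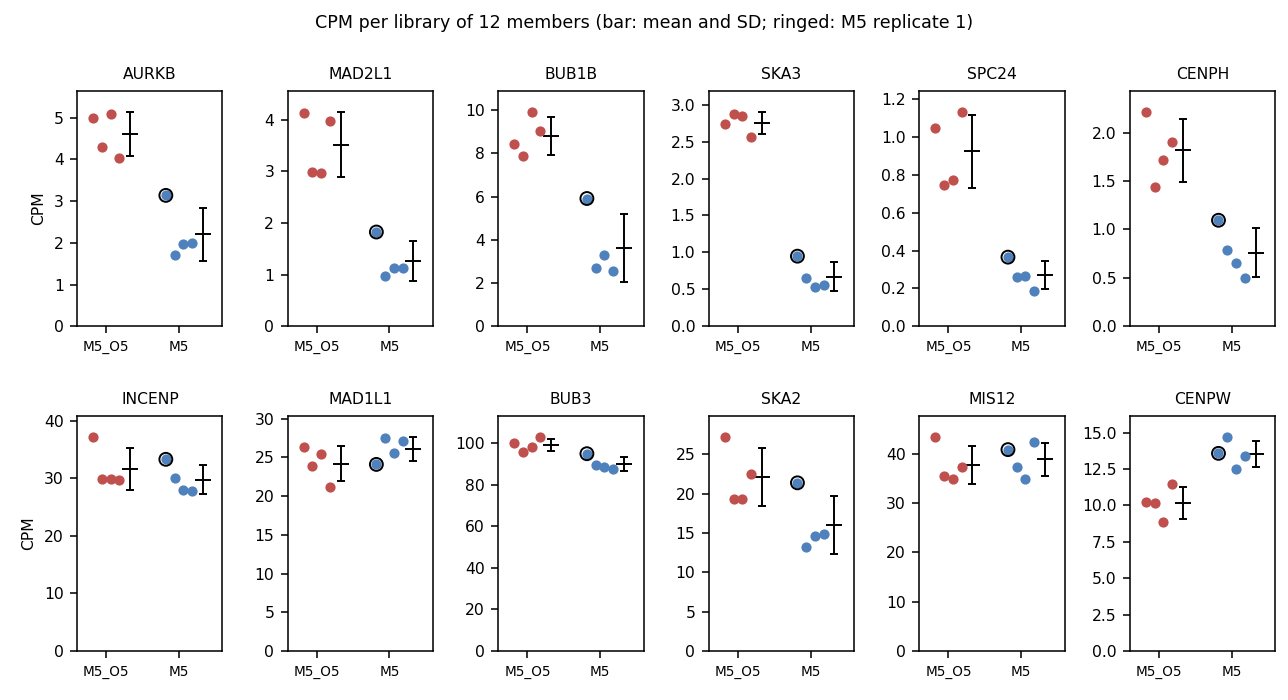
CPM per library of 12 members, in the upper row one called at 2-fold and beneath it a member of the same or a neighbouring complex with a smaller difference, with points for libraries, a ring around M5 replicate 1 and bars for the mean and SD (n = 4 per group). In the upper row the M5_O5 libraries lie above the M5 libraries, while INCENP, MAD1L1, SKA2 and MIS12 overlap, BUB3 is separated by a small step and CENPW is lower in M5_O5.

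The fibrous corona, which expands on kinetochores without microtubules, was divided. The kinesin CENP-E and the large coiled-coil protein CENP-F, which links the corona to dynein regulators, were called at 2-fold. CENPE (gene ID 1062) was at 9.82, 9.08, 7.65 and 10.9 CPM in M5_O5 and 6.57, 3.20, 3.22 and 2.62 CPM in M5, with M5 replicate 1 between the groups (log2 fold change 1.28 ± 0.22, adjusted p = 0.000468). CENPF was at 1.06 ± 0.20 (adjusted p = 0.00107). ZW10, ZWILCH and KNTC1 form the RZZ complex, which with SPDL1 (Spindly) brings dynein to the kinetochore, and none of these genes was called at 2-fold. ZWILCH was called at 0.37 ± 0.12 (adjusted p = 0.0209), a call lost without M5_O5 replicate 4 or any one of M5 replicates 2, 3 and 4.

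The other 3 corona genes were not called in the edgeR comparison of all 8 libraries and were called without M5 replicate 1. ZW10, the most abundant of the 6 at a mean of 18.8 TPM, was at 33.4, 32.6, 30.9 and 31.5 CPM in M5_O5 and 31.1, 28.0, 26.4 and 29.0 CPM in M5. KNTC1 was at 9.24, 8.44, 9.84 and 11.6 CPM in M5_O5 and 11.4, 6.92, 8.09 and 6.85 CPM in M5. SPDL1 was at 13.1, 11.4, 12.1 and 14.0 CPM in M5_O5 and 12.5, 9.14, 10.9 and 9.78 CPM in M5. In each, M5 replicate 1 was within the M5_O5 range and the other M5 libraries were below the M5_O5 libraries. The log2 fold changes were 0.17 ± 0.07, 0.24 ± 0.16 and 0.26 ± 0.11 with all libraries (adjusted p = 0.0696, 0.24 and 0.0713) and 0.21 ± 0.07, 0.42 ± 0.12 and 0.35 ± 0.10 without M5 replicate 1 (adjusted p = 0.0219, 0.0125 and 0.0134). With all 8 libraries ZW10 and SPDL1 were also called by library size alone (adjusted p = 0.0102 and 0.0238) and in the fit with a replicate block (0.0489 and 0.0408), and ZW10 by limma on both TPM scales.

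In the spindle checkpoint, 5 of 7 genes were called at 2-fold higher and the other 2 were not called. MAD2L1 (gene ID 4085), which encodes MAD2, the protein that changes shape to bind CDC20, was at 4.13, 2.99, 2.96 and 3.98 CPM in M5_O5 and 1.82, 0.980, 1.12 and 1.12 CPM in M5 (log2 fold change 1.49 ± 0.22, adjusted p = 0.000134). TTK, the kinase MPS1 that starts checkpoint signalling, was called at 1.45 ± 0.21. The kinase BUB1 and BUB1B, which encodes the BUBR1 subunit of the inhibitor of anaphase, were called at 1.16 ± 0.16 and 1.30 ± 0.20. Their target CDC20, the activator of the anaphase-promoting complex, was called at 1.02 ± 0.17. In all 5 genes every M5_O5 library lay above every M5 library.

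Their partners MAD1L1 and BUB3 differed less. MAD1L1 encodes MAD1, the receptor of MAD2 at the kinetochore, and was at 26.3, 23.8, 25.4 and 21.2 CPM in M5_O5 and 24.1, 27.5, 25.5 and 27.1 CPM in M5. The groups overlapped (log2 fold change -0.11 ± 0.08, adjusted p = 0.311). BUB3, the partner of BUB1 and BUBR1 and the most abundant member of all at a mean of 103.3 TPM, was at 100.04, 95.7, 98.3 and 103.0 CPM in M5_O5 and 95.0, 89.5, 88.6 and 87.7 CPM in M5. Its groups did not overlap, by a step of less than 1 CPM, and its log2 fold change of 0.14 ± 0.05 just missed the threshold (adjusted p = 0.0507). BUB3 passed it without M5 replicate 1 (0.16 ± 0.05, adjusted p = 0.0195) and, with all 8 libraries, under 7 other settings with log2 fold changes of 0.14 to 0.27. These were library size alone, a minimum of 10 counts, limma on both TPM scales, first placements only, the replicate block and the level trend removed.

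Of the chromosomal passenger complex, the kinase AURKB and its partners BIRC5 (survivin) and CDCA8 (borealin) were called higher and the scaffold INCENP was not. BIRC5 (gene ID 332) was at 5.81, 5.92, 4.80 and 6.24 CPM in M5_O5 and 3.58, 1.18, 1.84 and 1.43 CPM in M5, with groups that did not overlap (log2 fold change 1.53 ± 0.24, adjusted p = 0.000288). AURKB was called at 1.08 ± 0.18 and CDCA8, below 2-fold, at 0.84 ± 0.18. INCENP, the most abundant of the 4 at a mean of 10.8 TPM, was at 37.1, 29.8, 29.9 and 29.8 CPM in M5_O5 and 33.3, 29.98, 27.9 and 27.8 CPM in M5. M5_O5 replicate 1 was the highest, and the other M5_O5 libraries lay within the M5 range (log2 fold change 0.09 ± 0.09, adjusted p = 0.435).

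The shugoshins, which guard cohesin at the centromere until anaphase, were both called higher. SGO1 (gene ID 151648) was at 1.10, 1.44, 1.54 and 0.773 CPM in M5_O5 and 0.584, 0.457, 0.658 and 0.311 CPM in M5, with 5 to 26 reads per library. M5_O5 replicate 4 and M5 replicate 3 were the closest of the 2 groups, which did not overlap, and the log2 fold change was 1.27 ± 0.31 (adjusted p = 0.00568). SGO2 was at 10.8, 9.76, 8.47 and 11.5 CPM in M5_O5 and 9.12, 5.94, 6.45 and 5.79 CPM in M5. M5 replicate 1 lay above M5_O5 replicate 3, and SGO2 was called below 2-fold (log2 fold change 0.57 ± 0.15, adjusted p = 0.00702).

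**Figure D4:**
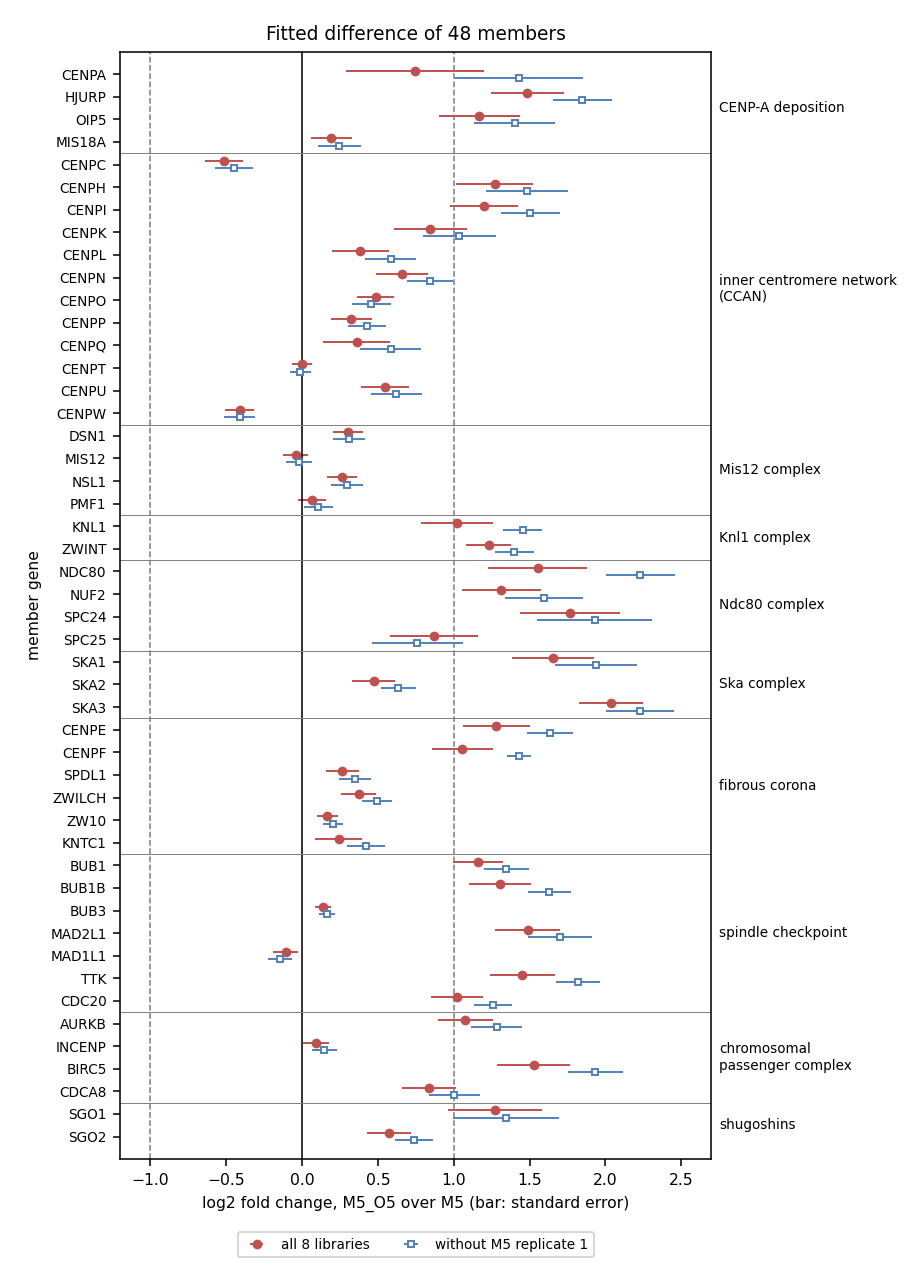
Log2 fold change of M5_O5 over M5 for the 48 tested members by role, with all 8 libraries (filled) and without M5 replicate 1 (open), bars being standard errors and dashed lines marking 2-fold. The Ndc80, Ska and Knl1 complexes and most of the checkpoint lie to the right, the Mis12 complex lies near 0, and CENPC and CENPW are the members called lower.

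The library that stood apart was placed on a scale from the mean of M5 replicates 2 to 4 (0%) to the mean of the M5_O5 libraries (100%) on log2 CPM, for the 24 members called at 2-fold without it. M5 replicate 1 lay at a median of 62.6%, from 26.5% for SGO1 to 139.5% for CENPA. M5 replicates 2, 3 and 4, each set against the other members of that trio, lay at medians of 3.28%, 6.58% and -7.55%. Within a gene the differences of the trio cancel, so their places centre near 0% by construction. The members were also selected on the same libraries. The scale is therefore a description, and the trio is not a like contrast for M5 replicate 1.

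**Figure D5:**
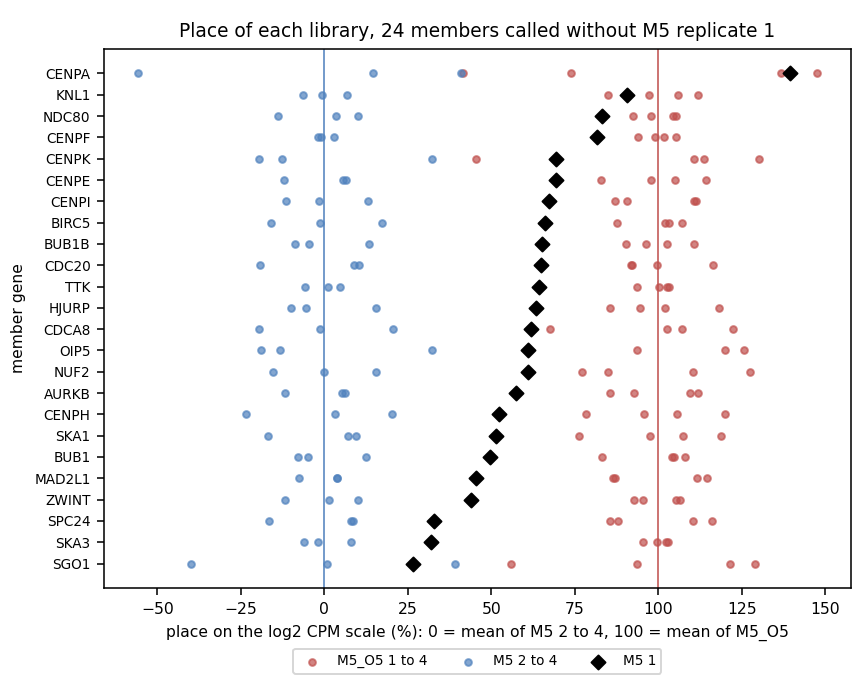
Place of each library on a log2 CPM scale where 0% is the mean of M5 replicates 2 to 4 and 100% the mean of the M5_O5 libraries, for the 24 members called at 2-fold without M5 replicate 1. The diamonds of M5 replicate 1 run from 26.5% (SGO1) to 139.5% (CENPA), between the 2 other sets of points in most rows.

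The motif counts were then set beside the calls. TTTGAA or TTCGAA stood in 13 of the 17 members called at 2-fold that had a promoter entry (76.5%) and in 10 of the other 23 (43.5%). CCAAT ran the other way, with 58.8% and 78.3%. The members called lower, CENPC and CENPW, held CHR letters too, 90 bases before and 18 bases after their starts. The members had a mean of 1.18 start sites with a window per gene, against 1.46 for all genes, and none of these shares was tested.

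Reads were spread over 251 RefSeq transcripts of the members. A single transcript held over 50% of the reads in 38 members, and 6 members (BUB1, BUB1B, CDC20, CENPH, MAD2L1 and NDC80) had 1 transcript in the table. In 13 members the share of the leading transcript differed by more than 10 percentage points between the groups. In NUF2 it was 67.1% in M5_O5, against all reads in M5, and in CENPN it was 51.3% and 25.9%. NUF2 had 12 to 64 reads per library, so the shares of its minor transcripts rest on few reads. Such shifts were not counted over all genes. These shares come from the authors' assignment of reads among overlapping transcripts, and they were not tested.

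Lists of genes around the kinetochore had medians nearer to 0, and their counts at any fold are to be read against the 19.5% of all genes called higher and 17.6% called lower. Most of the listed genes lay above a log2 CPM of 3, while 29 of the 48 members lay under it. The difference went with level, and the lists were not matched to the members for level. Of 16 other centromere and kinetochore genes, TRIP13, the ATPase that resets MAD2, was called at 2-fold higher (log2 fold change 1.73), 4 were called higher and 2 lower at any fold, and the median was -0.06. Of 17 genes of the anaphase-promoting complex and its E2 enzymes, UBE2C was called at 2-fold (1.06), 4 were called higher and 1 lower, with a median of 0.15. Of 12 cohesin genes, CDCA5, which encodes sororin, was called at 2-fold (1.11), 3 were called higher and 1 lower, with a median of -0.04. Of 12 dynein and dynactin genes 1 was called higher and 4 lower, and of 12 genes of the phosphatases PP1 and PP2A-B56 3 were called lower, with medians of -0.08 and -0.10. TRIP13, UBE2C and CDCA5 were at means of 4.72, 7.93 and 7.90 CPM in M5_O5 and 1.43, 3.84 and 3.68 CPM in M5. Among the listed genes called higher below 2-fold, the largest log2 fold changes were 0.83 for UBE2S, 0.66 for ESPL1, 0.61 for PTTG1 and 0.57 for HASPIN.

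The libraries carried the markers of the labelled cell type. All 10 keratinocyte markers were tested, their summed level was 20083 to 22767 CPM in M5_O5 and 24151 to 27076 CPM in M5, and 5 were called lower in M5_O5. Fibroblast markers summed to 32.98 to 36.6 CPM in M5_O5 and 43.1 to 58.3 CPM in M5, nearly all of it COL1A1, while COL1A2 and COL3A1 were at 0 reads in every M5_O5 library and at no more than 14 and 5 reads in an M5 library. Melanocyte markers summed to 1.90 to 2.62 CPM and 1.51 to 1.97 CPM. Leukocyte markers summed to 31.7 to 37.2 CPM and 36.1 to 39.9 CPM, nearly all of it CD14, with PTPRC and CSF3R at 0 reads in every library. The part of these levels in the results was not tested.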

How the data were processed

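Total RNA of 8 HaCaT cultures was extracted with TRIzol and sequenced from SMARTER mRNA-Seq libraries. By the paper's methods the authors mapped filtered reads with HISAT2 2.1.0 and quantified them with StringTie, while the submitters' processing notes name HISAT2 2.1.0, Bowtie2 2.2.5 and RSEM 1.2.8 with the mouse build mm10, although the transcripts are human RefSeq entries. The build was therefore taken as unsettled, and coordinates of promoters are those of the RefSeq table alone. The deposited estimated counts per transcript are not normalized, and 53.8% of the values were not whole. The deposited TPM values are divided by transcript length and brought to the same sum in every library, and the deposited FPKM values, which were not used here, divide counts by length and library size.

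Estimated counts of 86639 transcript rows were added up for each of 17131 genes and the sums were rounded. The rows include 4181 further placements of transcripts on the genome. Totals ran from 13708055 to 16922693 per library, so a member with few reads carries a large counting error. Symbols came from the RefSeq gene table, which left 59 genes without one. Genes were filtered with filterByExpr, scaled by TMM and compared with the quasi-likelihood test of edgeR 4.0.16 in R 4.3.3, with Benjamini-Hochberg adjustment over the 12434 genes tested. Calls needed an adjusted p under 0.05, and calls at 2-fold also a log2 fold change no smaller in size than 1. The standard error was the fold change divided by the root of F. The biological coefficient of variation was 7.42%, and each pair of replicates differed beyond counting noise (chi-square per degree of freedom 2.01 to 16.28).

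Groups were taken from the titles of the libraries. The members, their roles, the lists and the motifs were chosen with earlier results of these data known. In each role, library values were given for the members with the largest and smallest absolute log2 fold change and the highest mean TPM, for CENPA and for members whose call changed without M5 replicate 1, and called genes of the related lists were named. Alternatives were other scalings and filters, DESeq2 1.42.0, limma 3.58.1 on log2(TPM + 1) and log2(TPM + 0.1), first placements only, a block for the replicate number and leaving out single libraries.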

Additional observations from a re-analysis of the deposited data

Results flagged for a closer look

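In each group of 4 libraries, the gap of the highest or lowest library to its nearest neighbour was divided by the range and compared with Dixon's critical value. Over 98 such groups, 8 passed, where chance gives about 4.9, and 6 of the 8 were the value of M5 replicate 1, in each case above the other M5 libraries. The members share the same libraries, so the groups are not independent and these counts are not a test. KNL1 was at 10.6 CPM in M5 replicate 1 against 3.98 to 4.55 in the other M5 libraries. NDC80 was at 2.26 CPM against 0.498 to 0.724, and CENPE at 6.57 CPM against 2.62 to 3.22. CENPF was at 22.4 CPM against 9.78 to 10.3, MAD2L1 at 1.82 CPM against 0.980 to 1.12, and TTK at 4.16 CPM against 1.71 to 1.96. The remaining values were the CENPT level of M5 replicate 2, 46.6 CPM against 41.4 to 42.3, and the INCENP level of M5_O5 replicate 1, 37.1 CPM where the rest of its group held 29.8 to 29.9. The cause of these differences was not tested.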

How the results depend on the processing

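The count of 21 members called at 2-fold higher was 8 with limma on log2(TPM + 1), where the pseudocount shrinks the fold of low genes, 13 with the trend on expression level removed and 15 to 22 under the other settings that kept all libraries. The count of 31 at any fold was 26 to 36 over those settings. It was 36 with library sizes alone, where the median log2 fold change of all genes was 0.13. Beyond the main fit, shares of all genes were counted only with the trend removed and without M5 replicate 1. Member counts under the other settings and left-out libraries have no such share beside them. Of the 2 members called lower, 1 remained called with each limma scale. The median log2 fold change of 0.79 was 0.55 with a minimum of 10 counts per library, which tested fewer members, and 0.54 with the trend removed, which also ended the calls on CENPK, CENPO, CENPU, DSN1 and SPC25. With each library left out in turn, 17 to 24 members were called at 2-fold, 27 to 39 at any fold and 2 lower, and the median was 0.64 to 0.92. The members whose groups did not overlap then numbered 25 to 38, and 38 was the count without M5 replicate 1, where 24.7% of all genes lay apart in that direction. Sign changes came from members near 0. CENPT, MIS12 and MAD1L1 were at 0.115, 0.0742 and 0.00932 with library sizes alone, at 0.112, 0.0628 and 0.0227 with limma on log2(TPM + 1), and at 0.115, 0.0650 and 0.0236 on log2(TPM + 0.1). CENPT was at 0.00456 with the stricter count minimum and 0.0192 with the trend removed, where MIS18A was at -0.00465 and PMF1 at -0.00869. Over the left-out libraries CENPT ran from -0.0213 to 0.0375, MIS12 from -0.115 to 0.00240 and PMF1 from -0.0118 to 0.113. Over the 857 values of members under all alternatives, 785 kept their direction and side of the threshold, 29 gained a call, 26 lost one and 17 changed sign. The replicate numbers were not shown to pair the libraries, since deviations of same-numbered libraries correlated at 0.21, 0.099, -0.0036 and 0.013. In the fit with a replicate block, 21 members were called at 2-fold, 36 higher at any fold and 2 lower, with a median of 0.79. Depth limits the members with few reads, such as SPC24 and SGO1. CENPH, NDC80, SPC24, SKA1, SKA3 and SGO1 were called at 2-fold with all 8 libraries. Each of them fell under 10 reads in some library and was not tested with the minimum of 10 counts.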
